A study of Mus musculus with 4 samples.

Results

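The genes described here serve the sensing of force by cells, both at the membrane and at the sites where integrins hold the matrix. Piezo1 and Trpv4 encode cation channels of the plasma membrane, PIEZO1 being opened by membrane tension and TRPV4 by cell swelling and other stimuli. Talin-1 (Tln1) links integrins to actin and switches them on, vinculin (Vcl) binds talin and actin under load, zyxin (Zyx) gathers on strained actin bundles, and the tyrosine kinases FAK (Ptk2) and Src pass the signal on. In adherent cells of bone and marrow stroma, force and a stiff matrix bring the co-activators YAP (Yap1) and TAZ (Wwtr1) into the nucleus, where they act through TEAD factors such as TEAD1 (Tead1), while in leukocytes and platelets the talin system serves adhesion and migration.

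These 10 genes, 2 channels, 3 genes of the YAP/TAZ/TEAD module, 2 kinases and 3 proteins of the adhesion plaque, were chosen by name out of 55401 genes, and all of them were found in each library. They were measured by RNA-seq in bone marrow from the tibia of 4 mice. All were wild-type male C57/B6 mice that were given a high-fat diet from the age of 8 weeks, with no transgene or other agent. The 2 mice of the obesity group (Ob) had the diet alone, and the 2 mice of the group with obesity and exercise (Ob + Exe) also ran on a treadmill at moderate intensity for 12 weeks. The comparison asks how running changed the marrow of obese mice. There was no lean group, and the diet was common to both groups. Levels are FPKM, the number of fragments scaled to transcript length and to library size, summed over the transcripts of a gene and then scaled between libraries by the median ratio of the genes.

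The libraries held the equivalent of 53038186 and 50423542 reads on transcripts in Ob and of 44310505 and 46668748 reads in Ob + Exe. By the labels the tissue was bone marrow, although further fields say mesenchymal stem cells and fibroblast, and the levels were led by markers of blood cells. The summed level of 8 neutrophil markers lay between 24732 and 58731 FPKM and that of 8 erythroid markers between 41981 and 65212 FPKM, against 101 to 159 FPKM for 8 markers of marrow stroma. The library Ob + Exe 2 stood apart in the 8 megakaryocyte and platelet markers, all of which were lowest there: they summed to 477 and 355 FPKM in Ob 1 and Ob 2, to 394 FPKM in Ob + Exe 1 and to 142 FPKM in Ob + Exe 2. A gene was called when its unadjusted p from limma was under 0.05 and its log2 fold change was beyond 1, and of 86 marker genes that could be tested (a mean of at least 0.1 FPKM) 8 were called. Gp1ba and Treml1 of platelets, Bglap2 and Col1a1 of osteoblasts and Cd79a and Igll1 of B cells were called as lower. Atp6v0d2 of osteoclasts and Acta1 of skeletal muscle were called as higher. Their Benjamini-Hochberg adjusted p lay between 0.943 and 0.960 in limma, and 3.71% of all genes tested were called. By fold change 8 of 8 platelet, 6 of 7 osteoblast and 7 of 8 B cell markers tested were lower. Of the muscle markers 6 of 6 were higher, and of the osteoclast markers 3 of 5, Atp6v0d2, Mmp9 (0.29) and Oscar (0.22). Oscar stood on 4 and 28 read equivalents in Ob and on 51 and 0 in Ob + Exe. Ctsk (-0.20) and Acp5 (-0.22) were lower, and Calcr, Ocstamp and Dcstamp were too low to be tested. Bglap2 stood on 36 and 107 read equivalents in Ob and on 0 and 19 in Ob + Exe. In whole marrow, fewer cells of a type and less RNA per cell cannot be told apart.

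None of the 10 genes was called different between Ob and Ob + Exe, neither by limma nor by limma voom on read equivalents. Of all 18596 genes tested, 3.71% were called, 2.73% as lower and 0.979% as higher in Ob + Exe. The 10 genes had an unadjusted p of at least 0.218, so that 0 were under 0.05 against 5.02% of all genes tested, and their Benjamini-Hochberg adjusted p lay between 0.960 and 0.991. No gene of the whole table had an adjusted p under 0.05, the smallest being 0.768, while 933 had an unadjusted p under 0.05. In 0 of the 10 genes did the 2 Ob + Exe libraries lie on one side of both Ob libraries, whereas 32.7% of all genes tested had groups that did not overlap. The fold change was below 0 for 7 members and above 0 for 3, and its median was -0.14 on the log2 scale against -0.02 over all genes tested. For 8 of the 10 genes the difference between the group means was within the larger of the SDs of the groups, the exceptions being Ptk2 and Trpv4.

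**Figure D1:**
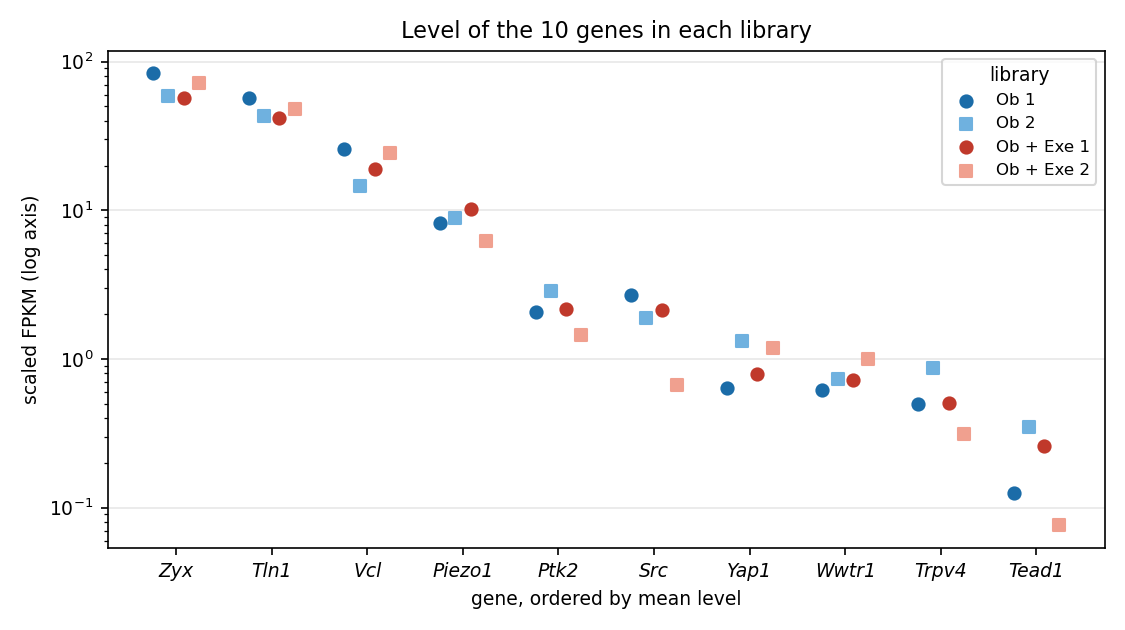
Scaled FPKM (log axis) of each of the 10 genes, ordered by mean level, with one point for each library (circles, replicate 1; squares, replicate 2; blue, Ob; red, Ob + Exe). The blue and red points of every gene overlap, and the levels run from 83.4 FPKM for Zyx in Ob 1 down to 0.0761 FPKM for Tead1 in Ob + Exe 2.

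Between genes the levels were much further apart than between groups. Zyx, Tln1, Vcl, Piezo1 and Ptk2 followed each other in that order, and the ranges of neighbouring genes over the 4 libraries did not overlap, although the lowest level of Zyx, 57.3 FPKM, was just above the highest of Tln1, 56.5 FPKM. From Ptk2 downward, through Src, Yap1, Wwtr1, Trpv4 and Tead1, each gene overlapped its neighbour, so the order among them was not larger than the spread between libraries. Zyx was above 95.5% of the genes tested in mean level, Piezo1 above 65.3%, Yap1 above 33.1% and Tead1 above 10.5%. In 4 genes, Yap1, Wwtr1, Trpv4 and Tead1, the mean over the libraries was under 1 FPKM.

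The 3 genes of the adhesion plaque were the most abundant. Zyx (chr6:42349630-42360213, plus strand, GRCm38) had 83.4 and 58.6 FPKM in Ob and 57.3 and 72.0 FPKM in Ob + Exe, or 71.0 ± 17.5 FPKM against 64.6 ± 10.4 FPKM (mean ± SD, n = 2 per group, as in all means that follow). Tln1 (chr4:43531519-43562691, minus strand) had 56.5 and 43.3 FPKM in Ob and 41.6 and 47.8 FPKM in Ob + Exe, or 49.9 ± 9.37 FPKM against 44.7 ± 4.39 FPKM. Vcl (chr14:20929398-21033676, plus strand) had 25.9 and 14.5 FPKM in Ob and 18.9 and 24.4 FPKM in Ob + Exe, or 20.2 ± 8.06 FPKM against 21.6 ± 3.89 FPKM. In all 3 genes Ob 1 was highest and Ob + Exe 2 came next, with one library of each group below them.

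Their log2 fold changes were small, and the depth left little counting error, since each value of Zyx, Tln1 and Vcl stood on 4827 to 30970 read equivalents. Tln1 changed by -0.15 (SE 0.227, 95% interval -0.71 to 0.41), which as a ratio of Ob + Exe to Ob extends from 0.611 to 1.33. Zyx changed by -0.12 (SE 0.258, interval -0.76 to 0.52), and Vcl by 0.14 (SE 0.335, interval -0.69 to 0.97). For these genes and for Piezo1 a change of more than 2-fold in either direction lay outside the 95% interval. The other 6 genes had intervals that reached past a 2-fold change.

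**Figure D2:**
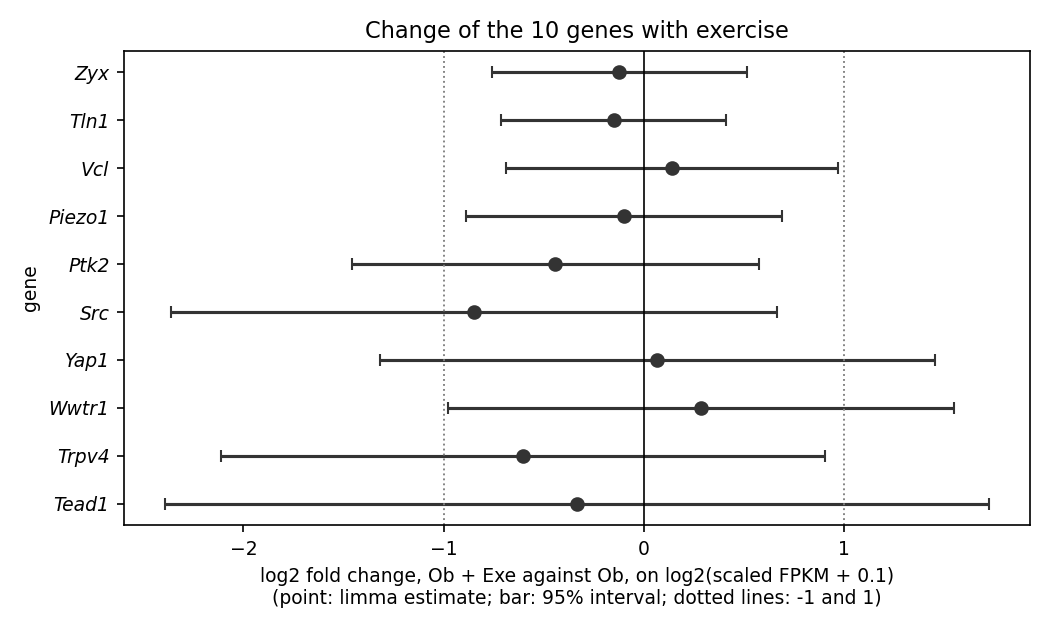
Log2 fold change of each of the 10 genes in Ob + Exe against Ob (points, limma estimate on log2 of scaled FPKM + 0.1; bars, 95% interval; dotted lines, -1 and 1). All 10 intervals hold 0, and those of Zyx, Tln1, Vcl and Piezo1 stay between the dotted lines.

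Of the channels, Piezo1 was well expressed and Trpv4 was not, and neither was called. Piezo1 (chr8:122481698-122551329, minus strand) had 8.17 and 8.85 FPKM in Ob and 10.2 and 6.19 FPKM in Ob + Exe, or 8.51 ± 0.484 FPKM against 8.19 ± 2.83 FPKM. The Ob + Exe libraries were thus its highest and its lowest. Its log2 fold change was -0.10 (SE 0.318, interval -0.89 to 0.69). Trpv4 (chr5:114622152-114658421, minus strand) had 0.497 and 0.875 FPKM in Ob and 0.507 and 0.315 FPKM in Ob + Exe, on 56 to 168 read equivalents. Ob 1 lay between the Ob + Exe libraries, 0.497 FPKM against 0.507 FPKM, so the groups overlapped by a very small margin. The log2 fold change of Trpv4 was -0.60 (SE 0.610, interval -2.11 to 0.91).

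Piezo1 held 99.8% to 100% of the summed level of both PIEZO channels, Piezo2 being above 0 only in Ob 2. Trpv4, in contrast, held 2.57% to 7.44% of the sum with Trpv2, a related channel that is abundant in macrophages and was measured at 13.2 and 10.9 FPKM in Ob and at 10.2 and 11.9 FPKM in Ob + Exe. Of 18 other mechanosensitive channels, 14 could be tested, and 1 of them, Trpc6, was called as lower. By limma voom on read equivalents Trpc1 was called as lower too. The most abundant were Tmem63a (22.8 to 37.0 FPKM), Trpm7 (11.6 to 13.7 FPKM), Trpv2 and Tmem63b (3.29 to 4.59 FPKM), none of which was called. Their list had a median log2 fold change of -0.07, with 8 genes lower and 6 higher, and a range from -1.79 to 1.48.

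Trpc6 encodes a calcium-permeable channel that diacylglycerol opens and that platelets and smooth muscle express. It had 1.63 and 2.00 FPKM in Ob and 0.473 and 0.428 FPKM in Ob + Exe, so both Ob + Exe libraries lay under both Ob libraries, on 361, 432, 90 and 77 read equivalents. The mean fell from 1.81 ± 0.263 FPKM to 0.450 ± 0.0322 FPKM, a log2 fold change of -1.79 (SE 0.471, interval -2.96 to -0.63, unadjusted p = 0.00969, adjusted p = 0.960 in limma, and at least 0.286 under every alternative run). The call was lost without Ob 2, where the change was -1.66 (unadjusted p = 0.0702), and with 1 FPKM added before the logarithm, where it was -0.95. The platelet markers were lower in Ob + Exe as well, 8 of 8 by their fold change with a median of -0.87. Their sum was 477 and 355 FPKM in Ob and 394 and 142 FPKM in Ob + Exe, and their part in the level of Trpc6 was not tested.

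Yap1, Wwtr1 and Tead1 were all at low levels in this marrow. Yap1 (chr9:7931999-8004596, minus strand) had 0.635 and 1.33 FPKM in Ob and 0.795 and 1.19 FPKM in Ob + Exe, and the group means were 0.983 ± 0.492 FPKM and 0.993 ± 0.281 FPKM. Each group held one library with more and one with less. Wwtr1 (chr3:57455649-57575910, minus strand), which encodes TAZ, had 0.621 and 0.735 FPKM in Ob and 0.716 and 0.999 FPKM in Ob + Exe, or 0.678 ± 0.0812 FPKM against 0.858 ± 0.200 FPKM. The lower Ob + Exe library lay just under the higher Ob library. Tead1 (chr7:112679318-112906807, plus strand) had 0.125 and 0.346 FPKM in Ob and 0.259 and 0.0761 FPKM in Ob + Exe, on as few as 42 read equivalents, and spread 4.55-fold between libraries.

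Log2 fold changes were 0.07 for Yap1 (SE 0.561, interval -1.32 to 1.46), 0.29 for Wwtr1 (SE 0.511, interval -0.98 to 1.55) and -0.33 for Tead1 (SE 0.831, interval -2.39 to 1.72). The intervals of all 3 reached past a 2-fold rise, and those of Yap1 and Tead1 also past a 2-fold fall, so changes of that size were not detectable here. Yap1 was higher in Ob 2 and Ob + Exe 2 than in the other two libraries. The summed stroma markers were high in the same libraries, with 104 and 159 FPKM in Ob and 101 and 158 FPKM in Ob + Exe. Most of this was Cxcl12, with 93.1 and 143 FPKM in Ob and 89.3 and 141 FPKM in Ob + Exe. Lepr, Kitl, Pdgfrb and Col3a1 were also higher in Ob 2 and Ob + Exe 2 than in the other libraries, but Pdgfra, Ebf3 and Foxc1 were not. The part of stroma cells in the level of Yap1 was not tested.

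Yap1 and Wwtr1 shared their sum about evenly, Yap1 holding 50.6% and 64.4% of it in Ob and 52.6% and 54.4% in Ob + Exe. Tead1 held 16.7% and 20.0% of the sum of the 4 TEAD genes in Ob and 40.0% and 9.94% in Ob + Exe. Tead2 was above Tead1 in all 4 libraries, with 0.453 and 1.04 FPKM in Ob and 0.388 and 0.356 FPKM in Ob + Exe. Its log2 fold change was -0.75 (SE 0.633, adjusted p = 0.960), and it was -1.28 without Ob 1 and -0.24 without Ob 2. Tead3 did not reach the level for testing, and Tead4 was between 0 and 0.334 FPKM.

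**Figure D3:**
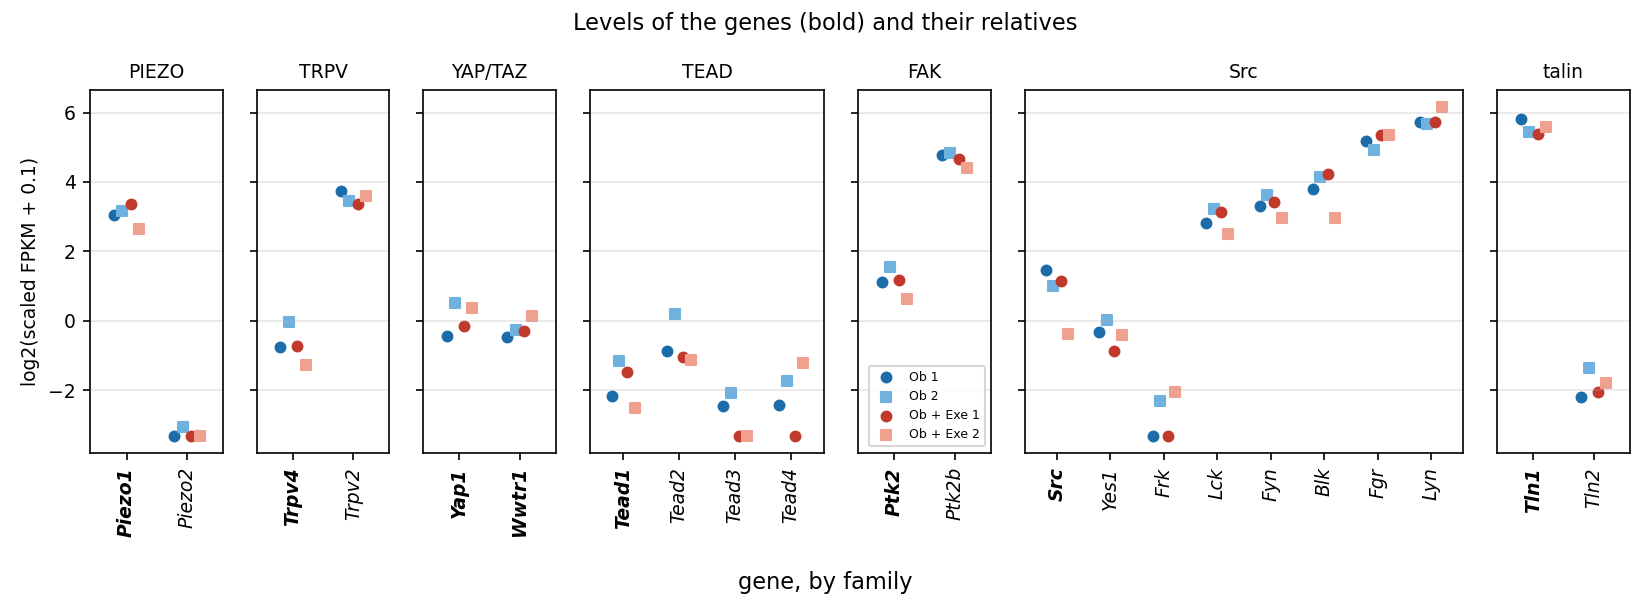
Log2(scaled FPKM + 0.1) in each library for 8 of the 10 genes (bold) and their nearest relatives, by family (blue, Ob; red, Ob + Exe; a gene listed at 0 sits at the bottom of the axis). Piezo1 and Tln1 are far above Piezo2 and Tln2, whereas Trpv4, Ptk2 and Src are far below Trpv2, Ptk2b and Lyn.

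TEAD factors recognize GGAATG, read as CATTCC on the other strand, and serum response factor, which drives many genes of the actin cytoskeleton, binds the CArG box. Both were searched on either strand in the 250 bases before the RefSeq start of each gene (GRCm38.p6), where 8 of the 10 genes had an entry. GGAATG or CATTCC stood in 3 of them, Yap1, Wwtr1 and Vcl, and in 12.6% of all 32851 promoters. A CArG box stood in 1 of them, Vcl, and in 1.47% of all promoters, and it did not overlap the TEAD motif there. The windows of these genes, and that of the YAP/TAZ target Ccn1, are printed 5′ to 3′ along the strand of the gene with these motifs in capitals. They lie at chr9:8004597-8004846 (Yap1, minus strand), chr3:57575911-57576160 (Wwtr1, minus strand, the first of its 2 starts), chr14:20929148-20929397 (Vcl, plus strand) and chr3:145649986-145650235 (Ccn1, minus strand).
Yap1: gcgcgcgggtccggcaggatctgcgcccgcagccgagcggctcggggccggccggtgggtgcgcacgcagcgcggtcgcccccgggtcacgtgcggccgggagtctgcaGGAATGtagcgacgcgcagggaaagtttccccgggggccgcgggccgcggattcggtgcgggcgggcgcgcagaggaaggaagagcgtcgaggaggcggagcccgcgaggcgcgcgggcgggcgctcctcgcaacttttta
Wwtr1: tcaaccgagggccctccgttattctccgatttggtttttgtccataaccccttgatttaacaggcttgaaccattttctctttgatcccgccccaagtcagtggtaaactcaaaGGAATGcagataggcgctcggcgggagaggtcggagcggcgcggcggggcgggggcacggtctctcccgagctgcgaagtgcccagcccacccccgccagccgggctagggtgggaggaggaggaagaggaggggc
Vcl: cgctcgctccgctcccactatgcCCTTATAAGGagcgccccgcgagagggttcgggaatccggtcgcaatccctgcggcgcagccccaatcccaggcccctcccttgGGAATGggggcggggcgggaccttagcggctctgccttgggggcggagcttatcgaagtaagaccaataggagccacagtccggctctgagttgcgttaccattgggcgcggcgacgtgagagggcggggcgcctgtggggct
Ccn1: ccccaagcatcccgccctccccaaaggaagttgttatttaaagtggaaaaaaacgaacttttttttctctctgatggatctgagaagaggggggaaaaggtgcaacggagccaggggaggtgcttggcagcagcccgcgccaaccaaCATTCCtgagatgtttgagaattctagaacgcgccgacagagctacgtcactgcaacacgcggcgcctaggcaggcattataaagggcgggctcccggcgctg
These are matches of letters, and neither binding nor promoter activity was measured here. The motif began 141 bases before the start in Yap1, 136 in Wwtr1, 143 in Vcl and 103 in Ccn1, and the CArG box of Vcl 227 bases before it. None of Yap1, Wwtr1 and Vcl, which share the TEAD motif, was called.

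Genes that YAP and TAZ are known to activate gave a mixed picture. Of 23 such genes, 19 could be tested, 1 was called as lower and none as higher, while 13 had a fold change above 0 and 6 below, with a median of 0.18 on the log2 scale. Ccn1, which encodes the matrix protein CYR61 and is a usual readout of YAP, had 0.629 and 1.12 FPKM in Ob, on 86 and 151 read equivalents, and was listed at 0 in both Ob + Exe libraries. It was called as lower (unadjusted p = 0.00493, adjusted p = 0.960 in limma), but its fitted fold change depends on the value added before the logarithm and is not given. The call held without any single library, but not with 1 FPKM added before the logarithm. Ankrd1, another usual readout, was listed at 0 in all 4 libraries, as were Fjx1 and Foxf2.

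Ccn2, which encodes connective tissue growth factor, had 2.01 and 2.09 FPKM in Ob and 1.63 and 0.657 FPKM in Ob + Exe. Both Ob + Exe libraries were under both Ob libraries, yet the log2 fold change of -0.91 (SE 0.531, interval -2.22 to 0.41, adjusted p = 0.960) was not called. It was -0.32 without Ob + Exe 2 and -1.51 without Ob + Exe 1, where it was called (unadjusted p = 0.0216, adjusted p = 0.535). Its reads were also divided otherwise between transcripts. Ccn2-201 (2398 bases) held 1.94 and 1.93 FPKM (not scaled) in Ob and was listed at 0 in Ob + Exe. There Ccn2-203 (2490 bases) held 1.62 and 0.624 FPKM against 0.0472 and 0.233 FPKM in Ob. The whole gene stood on 318 and 334 read equivalents in Ob and on 237 and 90 in Ob + Exe, and how reads were assigned to transcripts was not tested. By its most abundant transcript alone Ccn2 was called as lower, with a change of -4.33 (unadjusted p = 0.00158, adjusted p = 0.277) that depends on the added 0.1, since that transcript is at 0 in Ob + Exe. None of the 4 most abundant target genes was called. Gadd45a, a stress-induced growth regulator, lay between 87.5 and 117 FPKM, Asap1 between 20.0 and 30.2 FPKM, Nuak2 between 6.87 and 12.4 FPKM and the receptor kinase gene Axl between 8.84 and 12.7 FPKM.

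The kinases of the Hippo cascade restrain YAP and TAZ. Of 28 genes of this cascade, of its regulators in either direction and of the other TEADs, 26 could be tested and 1 was called. It was Wtip, an LIM protein of the Ajuba family, with 1.01 and 1.15 FPKM in Ob and 0 and 0.149 FPKM in Ob + Exe. Its log2 fold change of -2.90 (SE 0.735, interval -4.72 to -1.08, unadjusted p = 0.00838, adjusted p = 0.960 in limma) rests on 78 and 125 read equivalents in Ob and on 0 and 16 in Ob + Exe. The size of the change depends on the added value, since Ob + Exe 1 is at 0. Wtip stood at -4.77 with 0.01 FPKM added and at -4.93 by limma voom. It was not called without Ob 1 (-2.98, unadjusted p = 0.0687), without Ob 2 (-2.81, unadjusted p = 0.0746), with the most abundant transcript alone (-2.15) or with 1 FPKM added (-0.95). In the whole list 15 genes were lower and 11 higher, with a median of -0.06. The most abundant were the kinase co-activator Mob1a (56.3 to 109 FPKM), the ubiquitin ligase subunit Btrc (27.5 to 39.5 FPKM), the scaffold Sav1 (25.6 to 32.6 FPKM) and the kinase Stk4 (22.6 to 31.3 FPKM), and none of them was called. Mob1a, Btrc, Sav1 and Stk4, picked as the most abundant of the list, were above Yap1 and Wwtr1 in every library. In the same list 10 of the 28 genes had a mean under 1 FPKM.

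**Figure D4:**
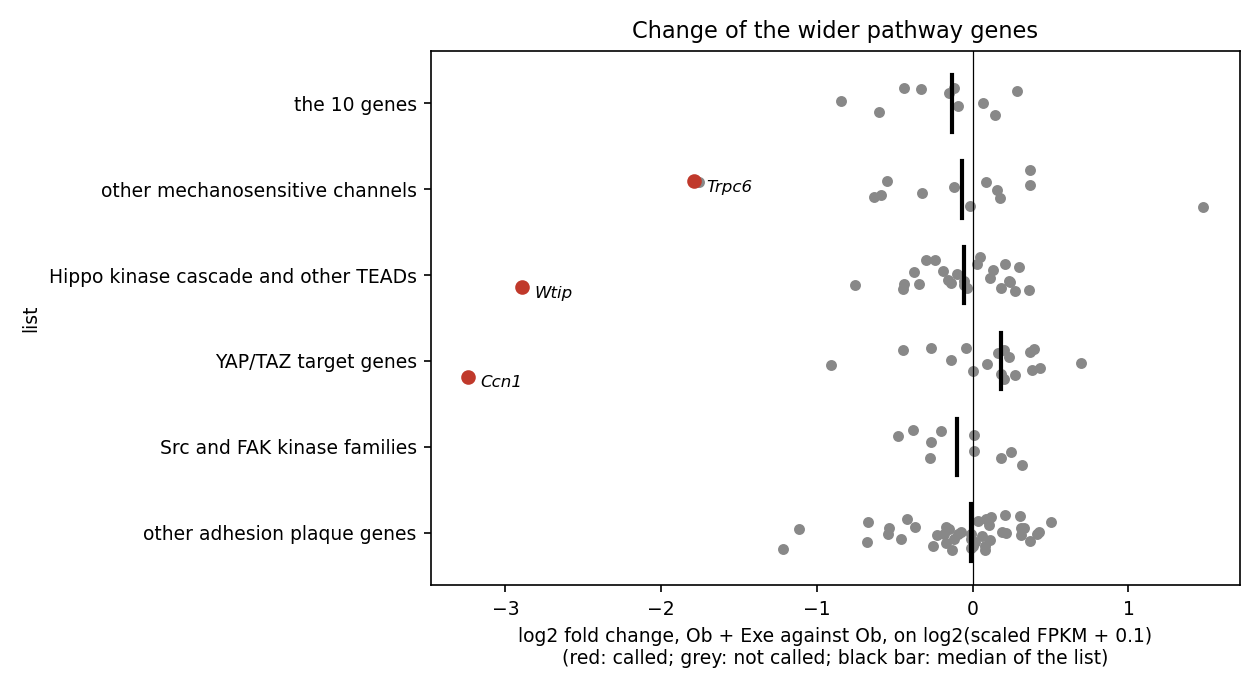
Log2 fold change in Ob + Exe against Ob for the 10 genes and for the tested genes of 5 wider lists (red, called; grey, not called; black bar, median of the list; height within a row has no meaning). The called genes Trpc6, Wtip and Ccn1 stand at the left end, and the medians lie between -0.14 and 0.18. Beside Trpc6 is Trpc1 (-1.76), not called in this fit but called by limma voom. The highest gene of the same list stands at 1.48 and was not called either. The places of Ccn1 and Wtip on the axis depend on the added 0.1, since Ccn1 is 0 in both Ob + Exe libraries and Wtip in Ob + Exe 1.

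The kinases FAK and Src were minor members of their families here. Ptk2 (chr15:73205102-73423280, minus strand) had 2.08 and 2.85 FPKM in Ob and 2.16 and 1.44 FPKM in Ob + Exe, or 2.46 ± 0.551 FPKM against 1.80 ± 0.510 FPKM. Only the order of Ob 1 and Ob + Exe 1, 2.08 FPKM and 2.16 FPKM, kept its groups from separating. Its log2 fold change was -0.44 (SE 0.412, interval -1.46 to 0.58). With TMM scaling in place of median ratios, or when the most abundant transcript alone was used, the groups of both Ptk2 and Trpv4 no longer overlapped, and without any scaling those of Trpv4 did not. Under none of these 3 settings was Ptk2 or Trpv4 called. Ptk2b, the relative of FAK that blood cells use widely, had 27.3 and 28.4 FPKM in Ob and 25.2 and 21.0 FPKM in Ob + Exe, and Ptk2 held 6.41% to 9.12% of the sum of both. Ptk2b changed by -0.27 (SE 0.211, adjusted p = 0.960).

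Src (chr2:157418444-157471862, plus strand), a kinase that platelets and osteoclasts express highly, had 2.67 and 1.89 FPKM in Ob and 2.13 and 0.664 FPKM in Ob + Exe, or 2.28 ± 0.557 FPKM against 1.40 ± 1.04 FPKM. Ob + Exe 2 was far below the other 3 libraries, and Ob + Exe 1 lay between the Ob libraries. With a log2 fold change of -0.85 (SE 0.612, interval -2.36 to 0.67, unadjusted p = 0.218), Src moved the most of the 10 genes, and 1 library decided its value. Without Ob + Exe 2 the change was -0.08, and without Ob + Exe 1 it was -1.62, which was then called (unadjusted p = 0.0292, adjusted p = 0.535). In Ob + Exe 2 the platelet markers were at their lowest with 142 FPKM. The 8 osteoclast markers summed to 229 and 153 FPKM in Ob and to 185 and 261 FPKM in Ob + Exe, but most of this was Mmp9, which neutrophils express too. Without Mmp9 the other 7 summed to 52.3 and 72.7 FPKM in Ob and to 77.7 and 63.6 FPKM in Ob + Exe. The part of either cell type in the level of Src was not tested.

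The 8 kinases of the Src family analysed here summed to between 123 and 135 FPKM, and Src held 2.17% and 1.53% of that in Ob and 1.58% and 0.492% in Ob + Exe. Lyn and Fgr, which myeloid cells express, made up most of the sum. Lyn had 53.2 and 50.9 FPKM in Ob and 53.4 and 71.4 FPKM in Ob + Exe. Fgr had 35.9 and 30.2 FPKM in Ob and 40.9 and 41.1 FPKM in Ob + Exe, so that its groups did not overlap. Their log2 fold changes were 0.25 and 0.32, neither of which was called. That of Lyn was 0.028 without Ob + Exe 2 and 0.45 without Ob + Exe 1, and that of Fgr 0.18 without Ob 2. Csk, the kinase that inhibits the family, lay between 42.6 and 48.5 FPKM. Fyn (7.73 to 12.2 FPKM), Lck (5.58 to 9.25 FPKM) and Yes1 (0.452 to 0.920 FPKM) were lower than Lyn and Fgr in every library. In the list of Src and FAK family genes and their regulators 10 of 11 could be tested, with 5 lower and 5 higher, none called by limma or by limma voom, none with an unadjusted p under 0.05 in limma, and a median of -0.10.

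The other genes of the adhesion plaque did not move as a group either. Of 44 genes 43 could be tested, 22 of them were lower and 21 higher, 0 were called by limma or by limma voom, and the median log2 fold change was -0.01. At an unadjusted p under 0.05 there was 1 gene, the parvin gene Parvb, with 31.0 and 26.1 FPKM in Ob and 20.2 and 18.8 FPKM in Ob + Exe. Its log2 fold change of -0.55 (unadjusted p = 0.0443, adjusted p = 0.960 in limma) did not reach the limit for a call, and it was chosen after its values were seen. The most abundant were Rap1b (109 to 176 FPKM) and Rap1a (74.8 to 136 FPKM), small GTPases that recruit talin to integrins, with the actin crosslinker gene Flna (113 to 136 FPKM) and Vasp (89.7 to 133 FPKM), whose product binds zyxin and extends actin filaments.

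Within families, single forms held most of the level. Tln1 held 99.3% to 99.8% of the talin sum, Tln2 reaching at most 0.287 FPKM. Kindlin-3 (Fermt3), the kindlin of blood cells, held 97.1% to 98.6% of the kindlin sum, and gamma-parvin (Parvg), the parvin of blood cells, held 56.8% and 51.7% of the parvin sum in Ob and 66.3% and 74.8% in Ob + Exe, both being named after their values were seen. Zyx held 64.1% to 76.7% of the sum of the 6 genes of the zyxin family. Over all 5 lists, with each gene counted once, 108 of 120 could be tested, and 3 were called as lower and 0 as higher. Among all genes tested 2.73% were called as lower and 0.979% as higher. In the lists 55 genes were below 0 and 53 above, with a median of -0.01.

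Libraries differed among the 10 genes in a way that crossed the groups. Ob + Exe 2 was the lowest library for 5 of them, Piezo1, Trpv4, Tead1, Ptk2 and Src, and it was the lowest for 26.7% of all genes tested. Without it the log2 fold changes of these genes were 0.25, -0.34, 0.18, -0.17 and -0.08, so Piezo1 and Tead1 turned to above 0. In the same library the sum of the endothelial markers was at its lowest, 9.95 FPKM against 16 to 19.9 FPKM. Of these 8 genes 5 were lowest there, and most of the sum was Egfl7 (5.69 to 13.5 FPKM). The sum of the B cell markers was lowest there too, 125 FPKM against 161 to 209 FPKM, as were 6 of the 8 genes, whereas Ms4a1 was highest there. The sum of the T cell markers was 10.7 FPKM against 13.7 to 21.3 FPKM, with 5 of 8 genes lowest there. The sum of the neutrophil markers was highest there, 58731 FPKM against 24732 to 42384 FPKM. Most of it was S100a8 and S100a9, while Mpo and Elane were highest in Ob 1. The adipocyte markers summed to 70.3 and 71.0 FPKM in Ob and to 119 and 91.3 FPKM in Ob + Exe. Most of this was Fabp4, with 59.5 and 57.5 FPKM in Ob and 105 and 77.7 FPKM in Ob + Exe, which was not called. Lep was listed at 0 in all libraries. Plin1 and Pck1 were above 0 only in Ob 1, on 11 and 4 read equivalents. Plin4 was above 0 only in Ob, on 61 and 32 read equivalents, and 4 of the 8 could be tested. Monocyte and macrophage markers summed to between 403 and 479 FPKM. Osteoblast and osteocyte markers summed to 18.2 and 27.0 FPKM in Ob and to 15.0 and 17.5 FPKM in Ob + Exe. Skeletal muscle markers summed to 10.2 and 5.84 FPKM in Ob and to 14.6 and 13.2 FPKM in Ob + Exe. The part of these cell types in the levels of the 10 genes was not tested.

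**Figure D5:**
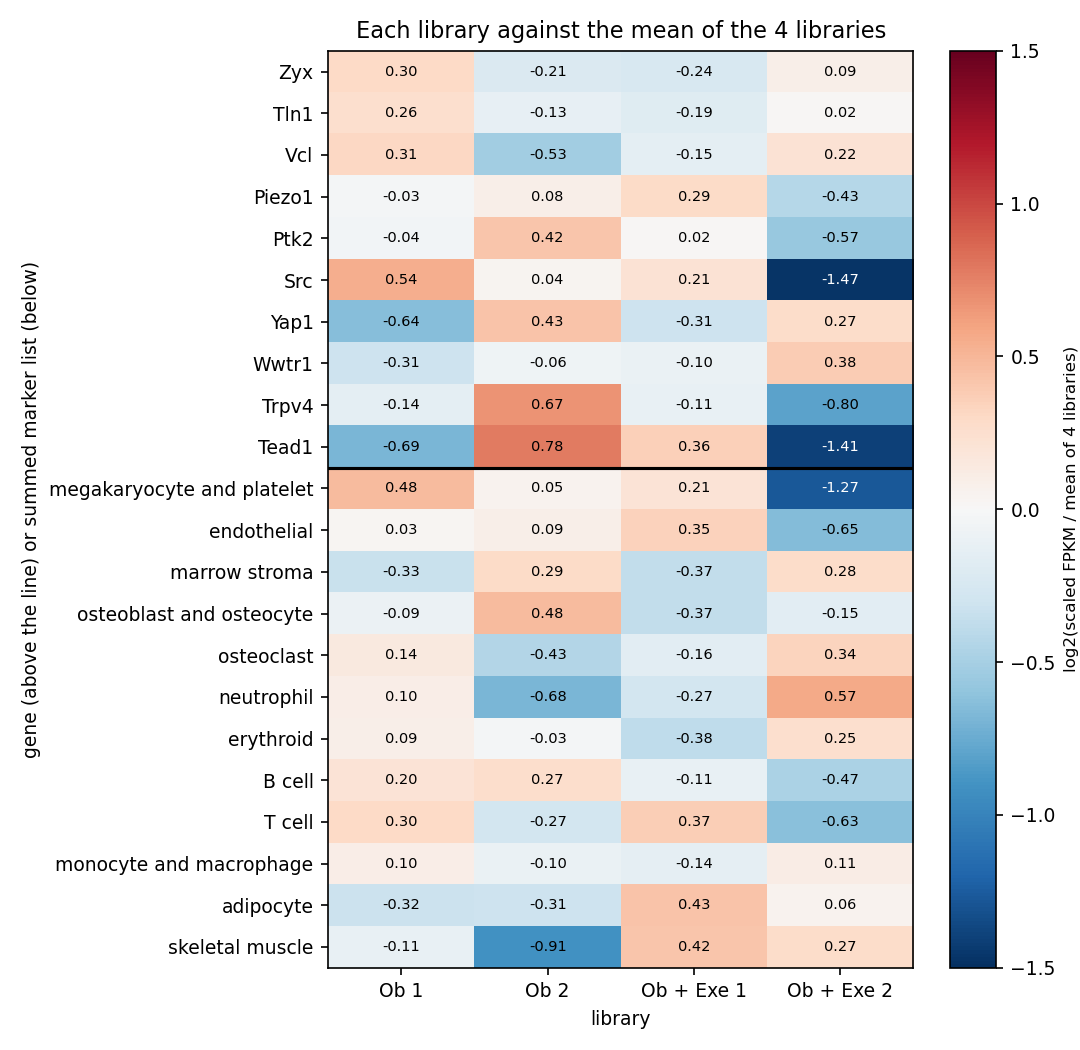
Each library against the mean of the 4 libraries, as log2 of the ratio of scaled FPKM, for the 10 genes (above the line) and for the sums of 12 lists of 8 cell type markers (below the line); red is above the mean and blue below it. In the Ob + Exe 2 column Src is at -1.47, Tead1 at -1.41 and the megakaryocyte and platelet list at -1.27, while Zyx, Tln1, Vcl, Yap1 and Wwtr1 are above 0.

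The transcripts behind the sums were mostly the same in every library. The tables held 92 transcripts of the 10 genes, of which 20 reached 10% of their gene in some library, and in 9 of the 10 genes the same transcript led in all 4 libraries. Zyx was the exception. Its transcript Zyx-207 held 38.3% and 84.3% of the gene in Ob and 34.1% and 56.0% in Ob + Exe, Zyx-201 held 33.3%, 0%, 0% and 24.3%, and Zyx-203, annotated with a retained intron, held 16.4%, 7.94%, 37.4% and 10.7% in the same order and led in Ob + Exe 1. In 3 genes a second protein-coding transcript appeared in Ob 1 and was at or near 0 in the others: Piezo1-201 with 35.1%, Yap1-202 with 23.8% and Src-203 with 33.3% of the gene in Ob 1. Taken by the most abundant transcript alone, Zyx had a log2 fold change of -0.54 in place of -0.12 and Piezo1 one of 0.13 in place of -0.10, neither of which was called. The kit is not one that keeps the strand, so reads where genes overlap can be counted for either. Ctu2 overlaps Piezo1 from the opposite strand over 2441 bases and had 5.69 to 9.02 FPKM, and Ap3m1 overlaps Vcl over 2235 bases and had 17.8 to 28.7 FPKM, both levels being near those of the member. Creb3 shares 360 bases with Tln1, and Epha1, which shares 1727 bases with Zyx, had at most 0.303 FPKM.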

How the data were processed

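The authors enriched poly-A RNA from tibial marrow, built libraries with the NEBNext Ultra kit, removed poor reads (fastp) and rRNA reads from the set, used HISAT2 to align the remaining reads to GRCm38, filtered with SAMtools and quantified GENCODE vM25 transcripts by StringTie. The deposited tables hold, for each library and transcript, the read coverage (a signal not corrected for depth) and the FPKM. In these deposited values the FPKM equals the coverage over a single constant for each library. No count table was used here. Read equivalents, coverage times length divided by the read length of 150 bases, give the depth of each value and cover counting error only. The number of mice, 2 per group, also limits the precision.

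Transcript FPKM were summed to 55401 genes. Libraries were scaled by median-of-ratios factors (0.949 to 1.03) from genes with a mean of at least 1 FPKM. The 18596 genes with a mean of at least 0.1 FPKM entered limma 3.58.1 (R 4.3.3) on log2(scaled FPKM + 0.1), two-sided, with an intensity trend, 2 residual and 3.73 prior degrees of freedom. Fold changes on this scale understate those of low genes. A call needed a log2 fold change beyond 1 together with an unadjusted p under 0.05, as in the study, whose own test takes counts. With 2 libraries against 2, an exact permutation test cannot give a two-sided p below 0.333. The fit was tested on simulated data. Tables were made with Python 3.11.15 and pandas 2.3.3, figures with matplotlib 3.10.9.

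The members and gene lists were chosen with earlier results of these data known. Named genes are the 10 members, their relatives, the called and the 4 most abundant genes of each list, usual YAP/TAZ readouts, and transcripts with at least 10% of a member. Cell type markers that were not called were named after their values were seen. 1 gene of the lists is not reported here. Promoters are RefSeq windows on GRCm38.p6, and transcript types come from GENCODE vM21. Nothing in the sources says that the libraries of a group are pools, and each was taken as 1 mouse. Alternatives changed the minimum, the added value, the scaling, the test, the block, the transcripts and the libraries.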

Additional observations from a re-analysis of the deposited data

How the results depend on the processing

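0 of the 10 genes were called under all alternatives except one: leaving out each library in turn gave 0 to 1, Src being called without the first Ob + Exe library. The 690 calls over all genes became 267 with a minimum of 1 FPKM, 224 with 1 FPKM added, 455 with limma voom on read equivalents and 1061 without the intensity trend, and ranged from 601 to 1853 with single libraries left out, 1226 without the first and 1853 without the second Ob + Exe library. Of 690 calls 508 were lower and 182 higher, and after quantile normalization 417 and 246. The 3 calls among the wider pathway genes became 1 with a minimum of 1 FPKM (Trpc6), 0 with 1 FPKM added, 5 without the trend and 5 by the most abundant transcript, and 1 to 6 with single libraries left out. The 8 marker calls became 3 to 12 with single libraries left out. By limma voom 4 of the wider pathway genes were called, Trpc1 being the one added. The cause of these shifts was not tested.

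Some directions turned. Piezo1 was at 0.13 by the most abundant transcript, Yap1 at -0.0071 without scaling and Tead1 at 0.14 after quantile normalization. With single libraries left out, the log2 fold change ranged from -0.46 to 0.25 for Piezo1, from -0.42 to 0.54 for Yap1, from -0.85 to 0.18 for Tead1, from -0.28 to 0.55 for Vcl, from -0.39 to 0.13 for Zyx, from -0.35 to 0.035 for Tln1 and from -0.27 to 0.011 for Trpv2. It kept its direction but moved from -0.96 to -0.26 for Trpv4, from -0.72 to -0.17 for Ptk2, from -1.62 to -0.08 for Src and from 0.07 to 0.50 for Wwtr1. Groups that did not overlap numbered 1 without scaling (Trpv4) and 2 with TMM factors or the most abundant transcript (Ptk2 and Trpv4).

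With a block for the replicate number, 776 genes, 0 of the 10 genes, 3 pathway genes and 9 marker genes were called, and 28 of all genes had an adjusted p under 0.05. The labels number the libraries but name no pairing, and libraries of the same number did not deviate together. The correlation was -0.11 over all genes tested and -0.235 over genes with a mean of at least 1 FPKM, so the number was not used. The crossed pairing, chosen after seeing the data, called 782, 0, 3 and 9, with 6 of all genes at an adjusted p under 0.05.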
